A study of Homo sapiens with 6 samples.

Results

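The subject is 10 genes of the 23569 in the expression table, namely A1CF, ESRP1, ESRP2, RBM47, RBFOX2, QKI, CELF1, CELF2, MBNL1 and PTBP1. They encode RNA-binding proteins of alternative splicing and RNA editing, and all 10 were listed in the table. The set was chosen by symbol with the levels and fold changes of the same 6 libraries already known, so the values of the members are a description and carry no test. RNA was sequenced from TFK1, a human cell line of extrahepatic bile duct carcinoma, in 3 oeNC libraries (negative control genotype) and 3 oeSTUB1 libraries (overexpression of STUB1). STUB1 is an E3 ubiquitin ligase that works with chaperones. Both groups were cells transduced with lentivirus, the study's methods describe a pHAGE vector for the STUB1 coding sequence and stable selected lines, and the labels list no further treatment. The sources do not say whether a group held more than 1 transduced population. If it was 1, the population and STUB1 cannot be told apart, and the spread between the 3 libraries of a group may be technical.

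Epithelial and mesenchymal cells make different proteins from many of the same genes by choosing different exons. ESRP1 and ESRP2, which are restricted to epithelial cells, promote the epithelial exons of transcripts such as FGFR2, CD44, CTNND1 and ENAH, whereas QKI and RBFOX2 act on many exons used in mesenchymal cells. A1CF and RBM47 are related proteins that bring the deaminase APOBEC1 to its RNA target, the APOB transcript of liver and intestine, where a cytidine is converted to uridine. CELF1, CELF2 and MBNL1 often act on the same exons in opposite directions, and PTBP1 represses exons next to pyrimidine-rich tracts.

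A1CF was the 1 tested regulator whose groups did not overlap, against 38.8% of all genes tested. Among the members too low to be tested, the FPKM groups of CELF2 (lower in oeSTUB1), ESRP1 and ESRP2 (both higher) did not overlap either. The sequence before its start site is shown beside those of RBM47, its partner in editing, and CELF1, a member with CpG-rich sequence at some of its starts and overlapping groups. RefSeq promoter windows (GRCh38.p14, 250 bases before to 50 after a start site) were used for 6 of the 10 members, with 25 windows. Windows on the chromosome of ESRP1 were left out. For each of the 3 genes, the longest stretch of the 250 upstream bases without an annotated exon on either strand (GENCODE release 29) is printed 5′ to 3′ on the gene's strand, with CpG dinucleotides in capitals. The A1CF stretch is chr10:50885676-50885877 on the minus strand, 202 bases that end 48 bases before the RefSeq start site. The RBM47 stretch is chr4:40515986-40516235 and the CELF1 stretch chr11:47553133-47553382, both on the minus strand, 250 bases long and at one of several starts of the gene. A further CELF1 stretch of 250 bases (chr11:47494522-47494771), as long as the one printed, held 1 CpG and 45.6% G and C.
A1CF: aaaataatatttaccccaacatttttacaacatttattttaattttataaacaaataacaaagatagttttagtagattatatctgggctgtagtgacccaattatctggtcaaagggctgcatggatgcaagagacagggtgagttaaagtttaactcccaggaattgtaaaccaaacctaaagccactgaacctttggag
RBM47: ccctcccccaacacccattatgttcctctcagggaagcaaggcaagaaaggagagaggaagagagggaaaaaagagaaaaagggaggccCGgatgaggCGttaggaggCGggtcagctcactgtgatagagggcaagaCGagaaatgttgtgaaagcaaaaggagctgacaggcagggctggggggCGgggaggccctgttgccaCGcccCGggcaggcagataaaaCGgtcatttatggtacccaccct
CELF1: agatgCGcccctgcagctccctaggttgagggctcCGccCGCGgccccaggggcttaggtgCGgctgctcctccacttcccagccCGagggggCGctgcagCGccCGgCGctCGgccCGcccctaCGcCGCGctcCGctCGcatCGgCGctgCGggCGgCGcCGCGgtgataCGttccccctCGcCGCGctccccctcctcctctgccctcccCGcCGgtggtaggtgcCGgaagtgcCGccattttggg

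The A1CF stretch held 0 CpG and 33.7% G and C, the RBM47 stretch 8 CpG and 56.8%, and the CELF1 stretch 32 CpG and 76%. Over the whole 300-base window, with the remaining upstream and the first transcribed bases included, A1CF had 5 CpG against a median of 14 over 35116 windows of 27305 genes, and 33.7% of those windows held 5 or fewer. Its G and C share was among the lowest, since 6.54% of all windows had a share as low or lower. The windows of the other members were mixed, with 5 to 19 CpG for RBM47, 1 to 44 for CELF1, 5 to 54 for CELF2, 5 to 31 for MBNL1 and 31 to 57 for PTBP1. On both strands the letters TATAAA were found in windows of A1CF, CELF2 and RBM47 (11.5% of all windows), the E-box letters CACCTG or CAGGTG in windows of CELF2 and RBM47 (20.6%), and TGTTTAC in a window of MBNL1 (3.42%). These matches describe letters only, and DNA methylation was not measured in these libraries.

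Levels are given as FPKM, fragments scaled to gene length and library total, which allows genes of different length to be compared. Library totals lay between 33106564 and 36744521 fragments, and whole fragments per gene were recovered from the FPKM steps. STUB1 itself was at 32.9, 33.0 and 30.9 FPKM in oeNC-1 to oeNC-3 and at 61.4, 75.0 and 61.9 in oeSTUB1-1 to oeSTUB1-3, so the labels and the targeted gene went together (log2 fold change 1.03, SE 0.097, limma adjusted p = 0.000642). Endogenous and introduced STUB1 are counted together, and 42.4% of its annotated exon bases lie opposite JMJD8. Of 8 markers of bile duct epithelium, 7 had a mean of at least 1 FPKM over the 6 libraries, led by KRT8 and KRT18. KRT19 reached that mean only through oeSTUB1, with means of 0.453 FPKM in oeNC and 2.97 in oeSTUB1. The summed level of the 8 was 7420 to 7996 FPKM in oeNC and 4724 to 6264 in oeSTUB1. Among them KRT8, KRT18, EPCAM and CDH1 fell, with log2 fold changes of -0.57 to -1.13 (limma adjusted p = 0.0372 for KRT8 and lower for the others), and KRT19 rose (2.47, limma adjusted p = 0.000176). KRT7 (means of 502 FPKM in oeNC and 704 in oeSTUB1) and CLDN4 were higher in oeSTUB1 without passing. Their log2 fold changes were 0.467 and 0.902 (limma adjusted p = 0.0818 and 0.104). SOX9 was lower without passing (-0.234, limma adjusted p = 0.251). Summed markers of other cells were 1.31 to 2.37 FPKM in oeNC and 2.16 to 4.05 in oeSTUB1 for fibroblasts, at most 0.250 for endothelium and 0.211 for muscle, 28.7 to 29.7 and 21.7 to 23.9 for leukocytes, and 82.4 to 88.7 and 100.5 to 131 for neurons. The leukocyte sum is mostly CD68, which fell from a mean of 27.2 to 19.2 FPKM (log2 fold change -0.498, limma adjusted p = 0.003). PTPRC, CD3E, LYZ, CD74 and FCER1G each had a higher mean in oeSTUB1, such as 0.701 and 1.44 FPKM for CD74. Of these higher means none passed, with limma adjusted p = 0.0556 for CD74, 0.186 for FCER1G, 0.289 for PTPRC and 0.386 for LYZ. CD3E was too low to be tested. The neuron sum is mostly TUBB3, which rose from a mean of 71.6 to 100.3 FPKM (log2 fold change 0.475, limma adjusted p = 0.0354). The means of SNAP25 and SYP were lower in oeSTUB1 without passing (limma adjusted p = 0.503 and 0.232). The fibroblast sum is mostly COL1A1, with means of 1.62 FPKM in oeNC and 2.81 in oeSTUB1 and overlapping groups (limma adjusted p = 0.12). LUM went the other way, with means of 0.220 and 0.0596 FPKM (limma adjusted p = 0.0826). The fibroblast markers COL1A2 and DCN had at most 3 fragments in every library. The part of these marker shifts in the levels described here was not tested.

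**Figure D1:**
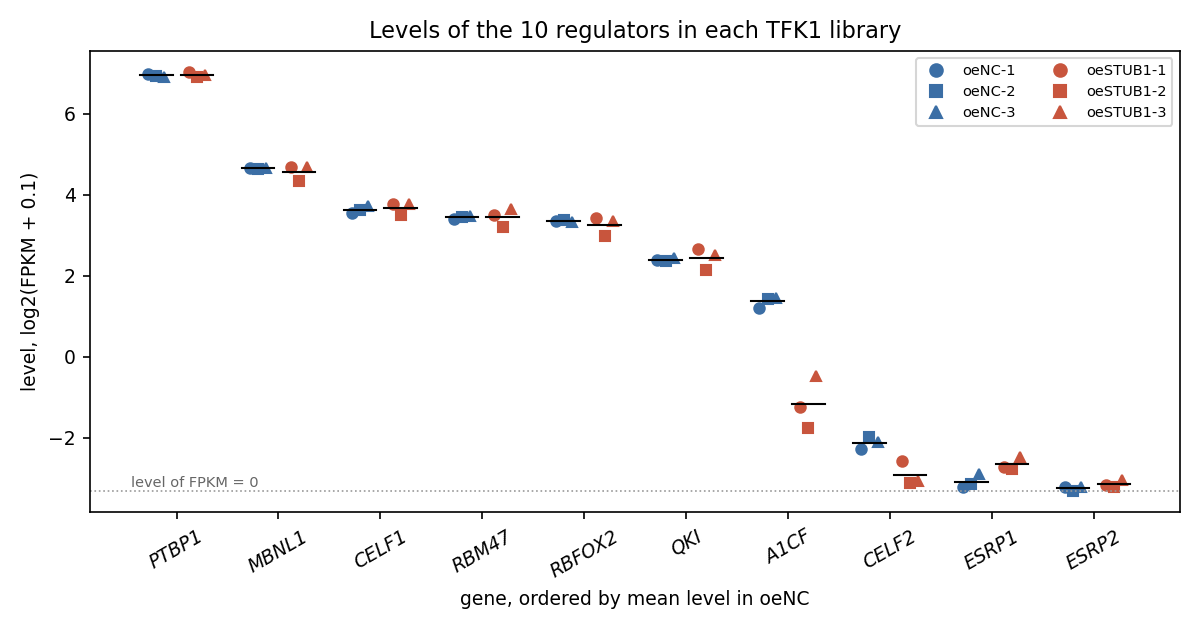
Levels of the 10 regulators, as log2(FPKM + 0.1) on the vertical axis, in each of the 3 oeNC (blue) and 3 oeSTUB1 (red) libraries, with the group mean as a black bar and the genes ordered by their mean in oeNC. In A1CF, and at a much lower level in CELF2, the 3 points of oeSTUB1 lie below the 3 of oeNC. The 6 genes from PTBP1 to QKI have overlapping groups, and ESRP1 and ESRP2 lie near the dotted line of FPKM = 0.

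A1CF, the RNA-binding cofactor of APOBEC1 that is normally made in liver, kidney and intestine, is annotated at chr10:50799409-50885675 on the minus strand (GRCh38). Its level was 2.22, 2.59 and 2.65 FPKM in oeNC-1 to oeNC-3, from 734, 854 and 928 fragments. In oeSTUB1-1 to oeSTUB1-3 it was 0.323, 0.197 and 0.618 FPKM, from 106, 62 and 201 fragments. The groups did not overlap, and the highest oeSTUB1 library, oeSTUB1-3, lay well below the lowest control library. The mean went from 2.49 ± 0.233 to 0.379 ± 0.216 FPKM (SD, n = 3), that is 6.56-fold lower or 15.2% of the control level. On the log2(FPKM + 0.1) scale the difference was -2.53 (SE 0.298), which placed A1CF at rank 29 among the 369 genes called lower. With a pseudocount of 1 the difference shrank to -1.35, as that constant weighs on a level below 1 FPKM, and leaving out oeSTUB1-2, its lowest library, gave -2.23. Of the exon bases of A1CF, 3.94% lie opposite ASAH2B, and the strand setting of the counting is not given in the sources used here. In bulk RNA, fewer cells that make A1CF and less A1CF RNA per cell cannot be told apart.

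RBM47, the related editing cofactor that also regulates splicing and mRNA stability, lies at chr4:40423267-40630875. It was at 10.5, 10.8 and 11.0 FPKM in the oeNC libraries and at 11.1, 9.18 and 12.4 in the oeSTUB1 libraries. The oeSTUB1 values lay on both sides of the control values, with the lowest in oeSTUB1-2 and the highest in oeSTUB1-3. Group means were 10.8 ± 0.273 and 10.9 ± 1.62 FPKM (SD, n = 3), a log2 difference of 0.006 (SE 0.116). Within each library, the FPKM of RBM47 was thus 4.71, 4.19 and 4.14 times that of A1CF in the controls and 34.4, 46.7 and 20.1 times that of A1CF in oeSTUB1. Expressed as the log2(FPKM + 0.1) of A1CF minus that of RBM47, the gap was -2.07 ± 0.097 in oeNC and -4.61 ± 0.436 in oeSTUB1 (SD, n = 3). The pair was therefore uneven in both groups, and the gap was wider in every oeSTUB1 library than in any control library.

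The deaminase that the pair serves was nearly undetected. APOBEC1 had 1 fragment in oeNC-2 and 0 in the other 5 libraries, and the edited transcript APOB had 2 fragments in oeSTUB1-1, 1 in oeSTUB1-3 and 0 elsewhere. APOBEC1 is thus not detectable at this depth in 5 libraries, where a count of 0 allows up to 3 fragments. Of 18 genes, RNA editing enzymes and APOB, 15 were listed and 10 tested, and 0 passed an adjusted p of 0.05 in either direction by limma or by limma-voom on the fragments, with 4 at an unadjusted p under 0.05 by each. Their median log2 fold change was -0.002, against 0.019 for all genes tested. ADAT3, a subunit of the tRNA adenosine deaminase, had 0.829, 0.704 and 0.664 FPKM in oeNC and 0.780, 1.78 and 1.76 in oeSTUB1 (0.81, limma adjusted p = 0.112), and was called, of the settings tried, only without oeSTUB1-1 (1.17, limma adjusted p = 0.00855).

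ESRP1 and ESRP2, the regulators that mark the epithelial splicing programme, were close to 0 in both groups although the keratins KRT8 and KRT18 were abundant. ESRP1 had 1, 2 and 5 fragments in oeNC-1 to oeNC-3 and 7, 6 and 11 in oeSTUB1-1 to oeSTUB1-3, or 0.00731, 0.0146 and 0.0345 FPKM against 0.0515, 0.0460 and 0.0816. The groups did not overlap, but the values rest on 8 fragments in oeNC and 24 in oeSTUB1. ESRP2, at chr16:68229111-68238102, had 2, 0 and 2 fragments in oeNC and 3, 2 and 5 in oeSTUB1, or 0.00836, 0 and 0.00790 FPKM against 0.0126, 0.00876 and 0.0212. Its groups did not overlap in FPKM, but a control library and an oeSTUB1 library tie at 2 fragments, so the closest values differ only by their library totals. Both genes were below the mean of 0.1 FPKM needed for the fit and no fold is given. These libraries thus held almost no RNA of either gene, and exon choice itself was not measured. Exon bases of ESRP2 overlap AC020978.5, MIR6773 or NFATC3, 1.96% on the same strand and 2.68% on the opposite strand, so how reads were assigned there is uncertain.

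The regulators that act on mesenchymal exons were expressed at moderate levels. QKI, a STAR family protein that also promotes circular RNAs, lies at chr6:163414000-163578596 and was at 5.14, 5.05 and 5.35 FPKM in oeNC and 6.21, 4.31 and 5.6 in oeSTUB1. Here oeSTUB1-2 was below every control library and the other oeSTUB1 libraries were above them, for a log2 difference of 0.04 (SE 0.138). RBFOX2, which binds GCAUG in RNA, lies at chr22:35738736-36028425 and was at 10.2, 10.4 and 9.96 FPKM in oeNC and 10.7, 7.75 and 10.1 in oeSTUB1 (log2 difference -0.11, SE 0.125). Again only oeSTUB1-2 stood below the controls. ESRP1 FPKM divided by RBFOX2 FPKM lay between 0.000718 and 0.00347 in oeNC and between 0.00484 and 0.00808 in oeSTUB1, and the log2(FPKM + 0.1) of RBFOX2 minus that of ESRP1 was 6.44 ± 0.189 in oeNC and 5.90 ± 0.215 in oeSTUB1. For ESRP1 minus QKI the gap was -5.48 ± 0.134 and -5.09 ± 0.253 (SD, n = 3). As ESRP1 lies below the pseudocount, these gaps understate the ratio of the levels.

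Of the CELF genes, CELF1 was far more abundant than CELF2. CELF1, which binds GU-rich RNA and lies at chr11:47465933-47565569, was at 11.6, 12.2 and 13.2 FPKM in oeNC and 13.5, 11.2 and 13.6 in oeSTUB1. Its groups overlapped and the log2 difference was 0.05 (SE 0.104). CELF2, a relative made mainly in muscle, nerve and T cells, lies at chr10:10798397-11336675 and had 45, 64 and 58 fragments in oeNC and 28, 6 and 8 in oeSTUB1, or 0.108, 0.154 and 0.132 FPKM against 0.0677, 0.0151 and 0.0195. All 3 oeSTUB1 libraries were below the 3 controls, and oeSTUB1-1 stood between the controls and the other 2. The mean of 0.131 ± 0.0229 FPKM in oeNC against 0.0341 ± 0.0292 in oeSTUB1 (SD, n = 3) is a ratio of 0.260, at a level too low for CELF2 to enter the fit. The log2(FPKM + 0.1) of CELF1 exceeded that of CELF2 by 5.75 ± 0.130 in oeNC and 6.60 ± 0.251 in oeSTUB1 (SD, n = 3). Since CELF2 in oeSTUB1 lies below the pseudocount, this understates the gap, and CELF2 FPKM divided by CELF1 FPKM was between 0.00934 and 0.0126 in oeNC and between 0.00135 and 0.00501 in oeSTUB1.

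MBNL1 and PTBP1 were the most abundant members. MBNL1, the muscleblind protein that is trapped by CUG repeat RNA in myotonic dystrophy, lies at chr3:152243828-152465780 and was at 25.0, 24.8 and 25.3 FPKM in oeNC and 25.5, 20.2 and 25.8 in oeSTUB1. Apart from oeSTUB1-2 the libraries of both groups lay between 24.8 and 25.8 FPKM (log2 difference -0.08, SE 0.106), and 15.6% of its exon bases lie opposite MBNL1-AS1 or AC026347.1, so sense and antisense reads may be mixed. PTBP1, which represses exons in non-neuronal cells, lies at chr19:797075-812327 and was at 127, 122 and 120.5 FPKM in oeNC and 131, 119 and 125 in oeSTUB1. The groups overlapped and the log2 difference was 0.02 (SE 0.076). Its neuronal relative PTBP2 was at 1.15 to 1.31 FPKM in oeNC and 1.18 to 1.41 in oeSTUB1, and the log2(FPKM + 0.1) of PTBP1 exceeded it by 6.56 ± 0.104 and 6.49 ± 0.106 (SD, n = 3).

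**Figure D2:**
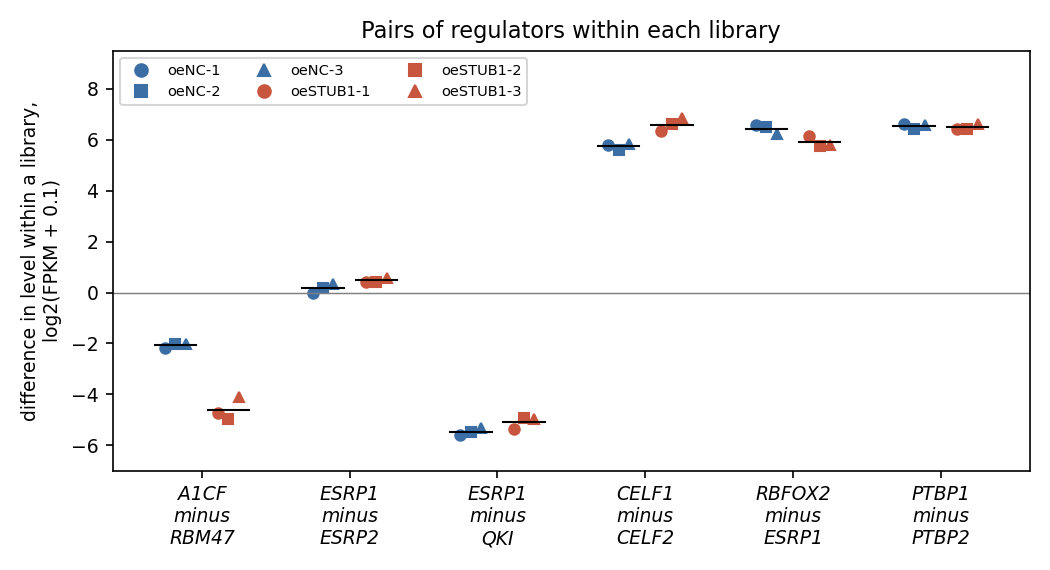
Difference in log2(FPKM + 0.1) between the members of each pair within a library, for 3 oeNC (blue) and 3 oeSTUB1 (red) libraries, with the group mean as a black bar. A1CF minus RBM47 lies at -2.19 to -2.01 in oeNC and at -4.97 to -4.12 in oeSTUB1, and PTBP1 minus PTBP2 overlaps between the groups.

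Of the 10 members, 7 passed the filter on low values (a mean of at least 0.1 FPKM), and 1 of them, A1CF, was called lower, where a call needs a limma adjusted p under 0.05 together with a log2 fold change beyond 1 in either direction, with 0 called higher. Over the 15353 genes tested, 5.20% were called, 2.79% higher and 2.40% lower, and 13.6% had an adjusted p under 0.05 at any fold change. As the members were chosen with this contrast known, nothing is read from these counts. The log2 differences of the other 6 lay between -0.11 and 0.05, and their signs changed in 1 to 5 of 17 alternative settings, so no direction is given for any of them. The median over the 7 was 0.006, against 0.019 for all genes tested.

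**Figure D3:**
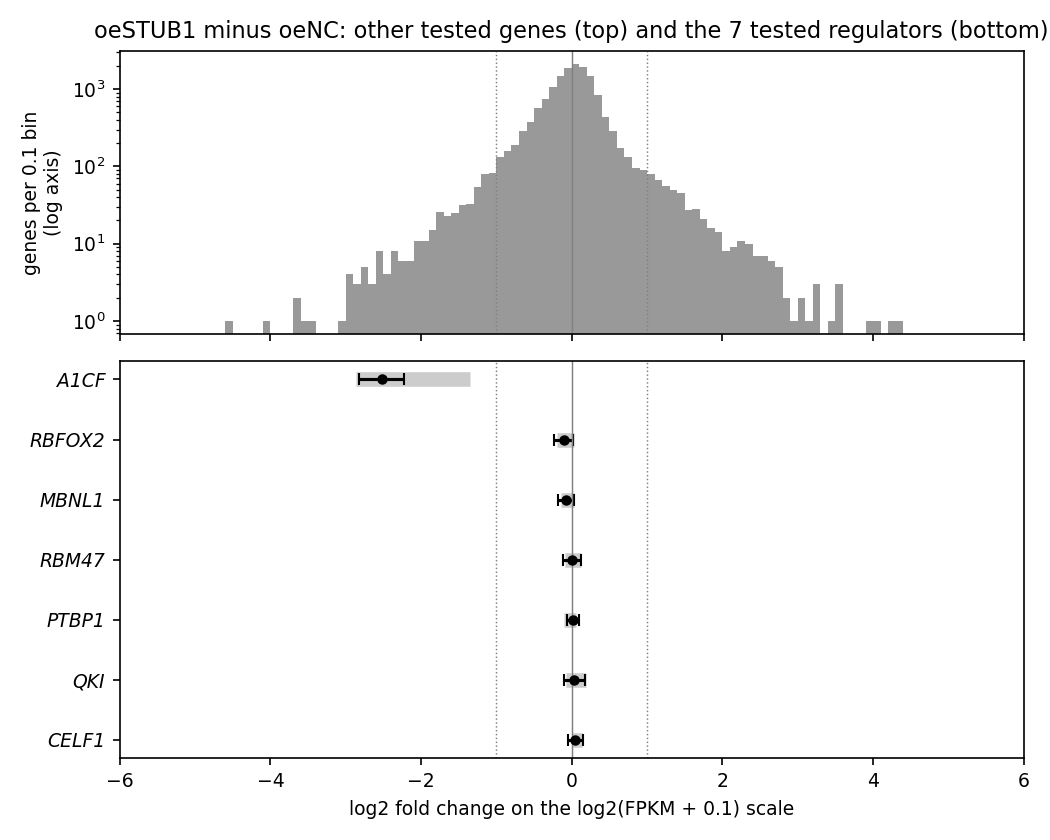
Top, the distribution of log2 fold changes (oeSTUB1 minus oeNC) of the other tested genes in bins of 0.1 with a log count axis. Bottom, the 7 tested members with the standard error of the fit as bars and the range over 17 alternative settings as grey bands, and dotted lines at -1 and 1. A1CF lies at -2.53 with a band from -2.86 to -1.35, while the other 6 lie between the dotted lines.

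The order of levels in oeNC was PTBP1, MBNL1, CELF1, RBM47, RBFOX2, QKI, A1CF, CELF2, ESRP1 and ESRP2, and of neighbours in this order only ESRP1 and ESRP2 overlapped. In oeSTUB1, CELF1 overlapped RBM47, RBM47 overlapped RBFOX2, and ESRP1, CELF2 and ESRP2 overlapped in turn. A1CF stayed in place 7 in both groups, with a mean of 2.49 FPKM below the 5.18 of QKI in oeNC and of 0.379 below 5.37 in oeSTUB1. The mean of CELF2 was above that of ESRP1 in oeNC and below it in oeSTUB1.

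In all 7 tested members oeSTUB1-2 was the lowest of its group, as it was in 42.6% of all tested genes. The deviation followed gene length. The median log2 difference of oeSTUB1-2 from the other 2 oeSTUB1 libraries was 0.33 for genes under 2000 bases, 0.12 from 2000 to under 4000, -0.16 from 4000 to under 8000 and -0.42 for 8000 bases or more, and 83.9% of the longest genes were lowest there. The tested members ranged from 3827 bases for PTBP1 to 16660 for QKI, and their deviations were -0.10 for PTBP1, -0.28 for CELF1, -0.34 for MBNL1, -0.35 for RBM47, -0.42 for RBFOX2, -0.44 for QKI and -0.89 for A1CF. PTBP1 lies in the class of 2000 to under 4000 bases, where the median was 0.12 and 23.8% of genes were lowest in oeSTUB1-2. Without oeSTUB1-2 the 6 uncalled members all had positive differences, from 0.03 for RBFOX2 to 0.18 for QKI, while A1CF was at -2.23. The part of this library's length pattern in the levels was not tested beyond these values.

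**Figure D4:**
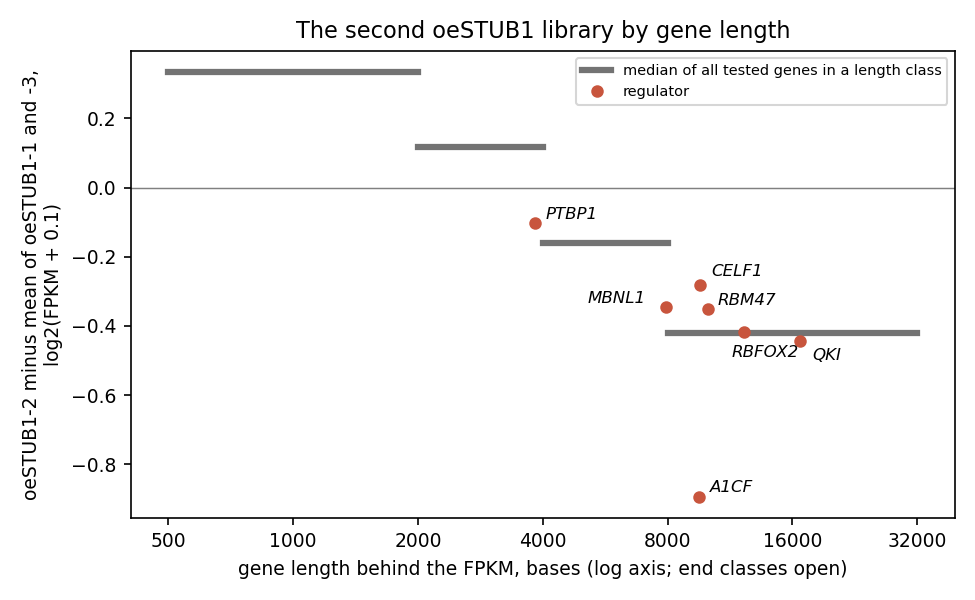
Difference in log2(FPKM + 0.1) of oeSTUB1-2 from the mean of oeSTUB1-1 and oeSTUB1-3, against gene length on a log axis, with grey lines for the median of all tested genes in 4 length classes and points for the 7 tested members. The medians go from 0.33 in the shortest class to -0.42 in the longest, and A1CF at -0.89 is the lowest point.

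The genes with the pattern most like A1CF were ranked over the 6 libraries by the root mean square difference of mean-centred log2(FPKM + 0.1) among 11374 candidates whose mean reached 1 FPKM. The 5 nearest were PLCB1, a phospholipase C (0.206), CYP4F11, a cytochrome P450 (0.235), CEMIP, a hyaluronan-degrading protein (0.238), BMP7, a secreted growth factor (0.271), and VCAN, the matrix proteoglycan versican (0.289). Their log2 differences lay between -2.69 for BMP7 and -2.29 for CYP4F11, beside -2.53 for A1CF. In PLCB1, CYP4F11, CEMIP, BMP7 and VCAN alike, as in A1CF, oeSTUB1-2 was the lowest library. Both likenesses follow largely from the ranking, which used the same 6 libraries, so nothing further is read from them.

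Of 19 paralogs and close relatives of the members, 12 were tested and 0 passed an adjusted p of 0.05 by limma or limma-voom (3 at an unadjusted p under 0.05 by each), with a median log2 fold change of 0.10. RBM46, another relative of A1CF and RBM47, had at most 1 fragment in any library, and MBNL2 was at 3.05 to 3.66 FPKM in oeNC and 3.54 to 4.37 in oeSTUB1 (limma adjusted p = 0.222). Of 48 SR proteins, hnRNPs and other splicing regulators, 43 were tested, 4 rose (SRSF1, HNRNPH3, NOVA1 and DDX5) and 3 fell (RBM20, RBM24 and RBPMS) by limma at any size, with a median of 0.13. Only RBM20, a splicing regulator of titin in heart, was called. It went from 9.09, 8.72 and 9.16 FPKM in oeNC to 3.14, 1.88 and 2.91 in oeSTUB1 (log2 fold change -1.76, SE 0.179, limma adjusted p = 0.000863). Over all genes tested, 13.6% had a limma adjusted p under 0.05, and no gene list here or below was tested as a set.

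Transcripts whose exon choice differs between epithelial and mesenchymal cells were measured only as whole genes, since the table holds no exons. Of 18 such transcripts, all tested, CD44 rose (0.62, limma adjusted p = 0.00887) and 5 fell by limma, FGFR2, NUMB, ITGA6 and KIF21A among them, with a median of -0.15. FGFR2, the receptor whose epithelial exon ESRP1 and ESRP2 promote, was the only one called, at 2.79, 2.64 and 3.10 FPKM in oeNC and 0.998, 0.906 and 1.44 in oeSTUB1 (-1.30, limma adjusted p = 0.0031). CTNND1 was at 0.118 to 0.666 FPKM over all libraries, and 4.64% of its exon bases are shared with TMX2-CTNND1, a readthrough gene, or AP001931.1 on the same strand, so how reads were assigned there is uncertain.

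Transcription factors that set epithelial and hepatic states were read beside the members. Of 19 EMT repressors and epithelial factors, 15 were tested, and SNAI2 and EHF rose by limma, with a median of 0.18. By limma-voom on the fragments 4 passed, with TCF4 added as higher and KLF5 as lower, and by limma these had log2 fold changes of 0.71 (limma adjusted p = 0.0664) and -0.37 (limma adjusted p = 0.0512). SNAI2, a repressor of epithelial genes, had 3, 2 and 4 fragments in oeNC and 38, 39 and 25 in oeSTUB1 (2.00, limma adjusted p = 0.00177, a size that depends on the pseudocount). ZEB1, which represses ESRP1 in other cells, was at 3.13 to 4.01 FPKM in oeNC and 2.30 to 3.90 in oeSTUB1 (limma adjusted p = 0.618), and its relative ZEB2, too low to be tested, had 3, 4 and 17 fragments in oeNC and 52, 16 and 56 in oeSTUB1, with a mean FPKM ratio of 5.46. The epithelial factor GRHL2 had at most 3 fragments in any library. Of 13 liver-enriched factors, 12 were tested, 1 rose and 5 fell by limma, with a median of -0.36. Called were NR5A2, higher (1.42, limma adjusted p = 0.000176), and NR1H4 (-1.52, limma adjusted p = 0.00125) and HNF4A (-1.05, limma adjusted p = 0.00182), lower. HNF4A missed the fold threshold without oeSTUB1-2 (-0.92, limma adjusted p = 0.000287).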

How the data were processed

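RNA-seq of 6 TFK1 libraries, 3 oeNC and 3 oeSTUB1, was analysed from the table of FPKM values that the authors deposited for 23569 genes. The submitters' processing notes name fastp 0.20.1, HISAT2 2.1.0, HTSeq 0.11.2, R 3.2.0, DESeq2 1.22.2 and the build GRCh38.p13, and the annotation and the strand setting are not given in the sources used here. FPKM divides by the gene length and the library total, so a library whose fragments favour short genes shifts every long gene. Whole fragments were recovered for all 23569 genes from the FPKM steps, taking the smallest whole gene length, and where all 6 numbers of a gene share a divisor, its fragments would be understated by it. Recomputed FPKM differed by at most 4.9e-06 from the deposited values, and 99.7% of each library total lay on listed genes. On simulated libraries 98.83% of 22644 genes were recovered.

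The 15353 genes whose mean reached 0.1 FPKM were fitted with limma 3.58.1 in R 4.3.3 on log2(FPKM + 0.1), with a two-sided test, a trend of the variance on the level and Benjamini-Hochberg adjustment over all genes tested. A gene was called at an adjusted p under 0.05 together with a log2 fold change beyond 1 in either direction. In simulated oeSTUB1 against oeNC data, calls with the correct direction were made for 197 of the 200 genes changed by 4 fold (15344 genes tested). Calls were also made for 7 unchanged genes. The simulation gave every gene the same dispersion and no library a length pattern like that of oeSTUB1-2. It therefore checks the code and gives no error rate for the real libraries. Tables and plots were made with Python 3.11.15, pandas 2.3.3, numpy 2.4.6, scipy 1.17.1 and matplotlib 3.10.9. The members, gene lists and naming rules were chosen with earlier results of these data known. The text names all members, STUB1, the called genes of each list (at most 8), set partners of the members, and the 5 genes most like A1CF. Genes that passed the adjusted p without being called, RBM46, MBNL1-AS1, ADAT3, GRHL2, ZEB2, TCF4, KLF5 and the markers were named after their values were seen. Alternatives to the pseudocount, filter, scaling, variance model and set of libraries were tried, with limma-voom on fragments and a correction for gene length. Gene positions come from GENCODE release 29 (GRCh38) and upstream sequences from RefSeq. Replicates of a group were not copies of 1 library, since their counts differed by more than counting noise (chi-square per degree of freedom 3.37 to 76.7). The depth is that of the fragments, and counting error and the spread between 3 libraries limit the precision. Results for a few genes of the lists are not reported here.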

Additional observations from a re-analysis of the deposited data

How the results depend on the processing

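In 16 fits other than the one reported the direction of A1CF was the same, and its log2 difference ranged from -2.86 to -1.35. Genes called higher and lower numbered 429 and 369, and moved to 120 and 120 with a pseudocount of 1 and to 202 and 182 at a mean of at least 1 FPKM, where fewer genes were tested. In the other gene lists, 2 were called higher and 4 lower, against 1 and 1 with a pseudocount of 1, which left RBM20 and NR5A2, and 1 higher at a mean of at least 1 FPKM. STUB1 stayed at an adjusted p under 0.05 by limma but below the fold threshold with quantile normalization (0.955, limma adjusted p = 0.00017) and with the correction for gene length, added after seeing the data (0.945, limma adjusted p = 2.14e-05). Leaving out each library in turn gave 330 to 448 genes called higher and 280 to 406 lower, and 0.93 to 1.08 for STUB1, below the fold threshold without oeNC-3 (0.99) and without oeSTUB1-2 (0.93). Same-numbered libraries of the groups did not deviate together (correlations -0.049, -0.052 and 0.062), and a replicate block on the number gave 405 genes higher and 353 lower. Where the cause of a shift is not in the alternative's construction, the cause was not tested. Groups of 3 libraries and at most 11 fragments of ESRP1 or ESRP2 in a library limit what can be read.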
